A study of Mus musculus with 13 samples.

Results

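Genes for the reabsorption of bicarbonate, sodium and water were followed in the S1 segment, the first stretch of the proximal tubule, in male C57Bl/6J mice. The set held 8 genes taken by name: Slc4a4, Slc9a3, Car2, Car4, Car14, Atp1b1, Aqp1 and Cldn2. Of these, 7 had a probe set annotated with that gene alone, 1 probe set each, among 22180 genes tested. The probe set for Car14 also carried the symbol Aph1a, so Car14 has no value here. Expression was measured on Affymetrix whole-transcript arrays, 13 in all, 1 per sample, and values are log2 levels after robust multi-array averaging (RMA). The 4 control arrays came from mice given saline. The 4 LPS arrays came from mice given 5 mg/kg lipopolysaccharide, the endotoxin of Gram-negative bacteria (0111:B4), into the peritoneum and studied 24 h later. The 5 LPS/LPS arrays came from preconditioned mice, which received 0.25 mg/kg and, after 24 h, the 5 mg/kg dose, with tissue taken 24 h after that. The labels name no genotype, age or cage, and leave it unsaid if every array stands for its own animal. The p-values therefore reflect the spread among these samples, which may be technical.

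Sodium enters the proximal tubule cell in exchange for protons through NHE3, the product of Slc9a3, in the brush border. The secreted protons turn filtered bicarbonate into carbon dioxide and water with the help of the membrane-anchored carbonic anhydrases of Car4 and Car14, and the cytosolic enzyme of Car2 rebuilds bicarbonate inside the cell. The basolateral cotransporter NBCe1 (Slc4a4) returns bicarbonate and sodium to the blood, and the sodium pump, whose beta subunit is encoded by Atp1b1, keeps intracellular sodium low. Water follows through aquaporin-1 channels (Aqp1) and, with sodium, between the cells through the claudin-2 pores of the tight junction (Cldn2).

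Array medians lay between 3.56 and 3.68, and the mean correlation across genes was 0.863 between arrays within a group and 0.858 between groups. The standard deviation (SD) of the log2 values split the arrays into 7 of wide spread (1.35 to 1.42) and 6 of narrow spread (1.28 to 1.30). In control, replicates 1 and 4 were wide. In LPS this held for replicates 2, 3 and 4, and in LPS/LPS for replicates 1 and 5. The files hold no detection calls, so a background reference was set at 4.77, the level below which 95% of 1105 olfactory receptor genes lay. Below it the size of a difference is uncertain. Of 14 measured markers of S1 and S2 tubule, 7 had a mean above that reference, led by the phosphate cotransporter Slc34a1 with 11.23 ± 0.23 (SD, n = 4) in control. The defining glucose transporter Slc5a2 (mean over all arrays 4.27) and the lactate transporter Slc5a12 (3.00) lay below it. LPS replicate 3 stood apart in some markers of later segments. Umod, the uromodulin gene of the thick ascending limb, read 8.36 there and between 4.28 and 6.77 on the other arrays. Slc12a1, the sodium-potassium-chloride cotransporter of the same segment, read 6.79 there and at most 4.20 elsewhere. Over all 13 markers of the thick limb, distal tubule and collecting duct, the mean level on that array was 5.04, against 4.00 to 4.30 on the other 12.

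No member passed the test in any comparison. In LPS vs control, limma with Benjamini-Hochberg adjustment called 0 of the 7 members, beside 0 of all genes (0%), and 1 member and 6.43% of all genes had an unadjusted p under 0.05. In LPS/LPS vs control the test called 0 of the 7, beside 0.00902% of all genes, and 1 member and 4.70% of all genes had an unadjusted p under 0.05. In LPS/LPS vs LPS it called 0 of the 7, beside 0.0631% of all genes, and 1 member and 8.61% of all genes had an unadjusted p under 0.05. The F-test over the 3 groups also called 0 of the 7, beside 0.0631% of all genes, with the lowest adjusted p at 0.34, for Car4. In LPS vs control 5 members had positive and 2 negative differences, with a median of 0.06 against -0.02 over all genes, of which 52.9% were negative. In LPS/LPS vs control all 7 measured members had negative differences, with a median of -0.51 against 0.03 over all genes, of which 44.2% were negative. All 7 were again negative in LPS/LPS vs LPS, with a median of -0.47 against 0.05 over all genes, of which 40.7% were negative. These comparisons share arrays in pairs, so the counts are not independent of each other. The signs were less uniform within the spread classes. In LPS/LPS vs LPS, Slc9a3 (0.48), Car2 (0.04) and Car4 (0.06) were positive among narrow arrays, which include 1 LPS array. Cldn2 (0.07) was positive among wide arrays. In LPS/LPS vs control, Slc9a3 (0.25) and Aqp1 (0.02) were positive among narrow arrays. The remaining members were negative within each class in these 2 comparisons. Groups without any overlap of their arrays were seen for 0 members in LPS vs control (3.15% of all genes), 1 member, Car4, in LPS/LPS vs control (1.54%) and 0 in LPS/LPS vs LPS (2.40%).

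The markers of S1 and S2 tubule moved with the LPS/LPS group too. Their mean level ran from 5.15 to 5.91 on the control arrays, from 4.59 to 5.92 on the LPS arrays and from 4.55 to 5.13 on the LPS/LPS arrays, so control and LPS/LPS did not overlap. This level also followed the spread of the arrays, with each wide array above each narrow one within every group. Control read 5.51 to 5.91 on wide and 5.15 to 5.43 on narrow arrays, and LPS/LPS 5.00 to 5.13 and 4.55 to 4.59. The wide LPS arrays read 5.07 to 5.92 and the narrow one 4.59. What the spread contributed was not tested. The median difference of these 14 markers was -0.53 in LPS/LPS vs control, -0.36 in LPS/LPS vs LPS and -0.03 in LPS vs control, with 0 called in each. The part of this marker level in the members' differences was not tested, and in bulk samples fewer cells of a type and less RNA per cell cannot be told apart.

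**Figure D1:**
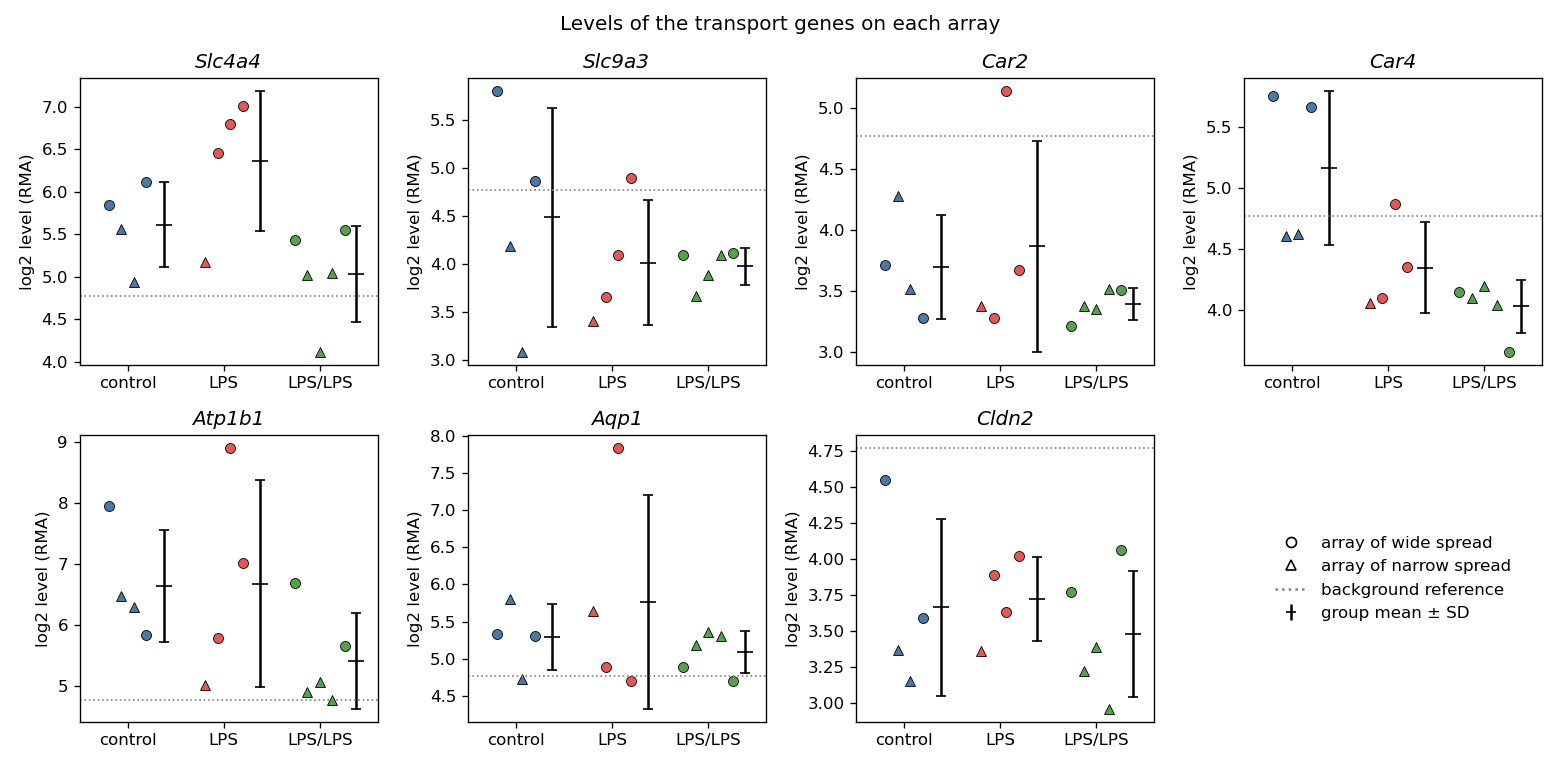
Log2 level (RMA, y axis) of the 7 measured genes on each array of the control (n = 4), LPS (n = 4) and LPS/LPS (n = 5) groups. Circles are arrays of wide spread, triangles arrays of narrow spread, black bars the group mean ± SD, and the dotted line the background reference of 4.77. Car4 is the member whose LPS/LPS arrays all lie below the control arrays, and 1 LPS array carries the highest Car2, Atp1b1 and Aqp1 values.

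Car4 encodes carbonic anhydrase IV, which is tethered to the brush border and the basolateral membrane and works on filtered bicarbonate. Its log2 levels in control replicates 1 to 4 were 5.75, 4.61, 4.62 and 5.66. The LPS replicates 1 to 4 read 4.06, 4.10, 4.87 and 4.35. The LPS/LPS replicates 1 to 5 read 4.15, 4.10, 4.20, 4.04 and 3.66. All 5 LPS/LPS arrays lay below all 4 control arrays, as they did, in that direction, for 0.699% of all genes. On the LPS side only replicate 3, at 4.87, reached into the control range. The means were 5.16 ± 0.63 (SD, n = 4) in control, 4.34 ± 0.37 (SD, n = 4) in LPS and 4.03 ± 0.22 (SD, n = 5) in LPS/LPS. LPS/LPS differed from control by -1.13 (SE 0.26, 95% interval -1.68 to -0.58), a level 2.19-fold lower, with an unadjusted p of 0.000611 and a limma adjusted p of 0.703. The unadjusted p ranked 19th of all genes. Over the settings, with single arrays left out only from the groups compared, the lowest adjusted p was 0.389. LPS differed from control by -0.82 (SE 0.27, unadjusted p = 0.00937, limma adjusted p = 0.601), and LPS/LPS from LPS by -0.31 (SE 0.26, limma adjusted p = 0.761), or by -0.14 without LPS replicate 3. The control arrays were split by spread, with the wide pair at 5.75 and 5.66 and the narrow pair at 4.61 and 4.62. Among wide arrays LPS/LPS minus control was -1.80 and LPS minus control -1.27. Among narrow arrays, which include a lone LPS array, these values were -0.50 and -0.56. Group means of Car4 in LPS and LPS/LPS lay below the background reference, so the size of these differences is uncertain. The 250 bases before its RefSeq start (GRCm38.p6, chr11:84957504-84957753, plus strand) are shown because it is the member whose groups separated. No letter match to the 7 motifs searched was found in them, so the run is all in lower case.
Car4: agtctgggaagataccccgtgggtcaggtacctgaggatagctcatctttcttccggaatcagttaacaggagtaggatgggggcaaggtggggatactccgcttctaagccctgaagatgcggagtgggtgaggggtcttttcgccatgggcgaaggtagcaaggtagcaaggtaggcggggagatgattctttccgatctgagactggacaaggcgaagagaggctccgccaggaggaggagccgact

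The motifs were searched as plain letters on both strands, without regard to overlap. The liver and kidney factor HNF1 was represented by GTTAAT, found in 6.44% of 32817 promoter windows of that length. HNF4 was represented by CAAAGTCCA (0.384% of windows) and the STAT factors by TTCNNNGAA (7.01%). For NF-kB the core GGACTTTCC was used (0.283%). The general promoter elements were the TATA box, as TATAAA (12.4%), the SP1 site, as GGGCGG (32.7%), and the CAAT box, as CCAAT (33.8%). Of the 8 members 7 were listed, with 8 windows, and 0 of these windows held the letters for HNF1, HNF4, STAT or NF-kB. SP1 letters occurred in windows of 4 members (Slc4a4, Slc9a3, Atp1b1 and Aqp1), those of the CAAT box in windows of Slc4a4 and Atp1b1, and those of the TATA box in that of Cldn2. No match says only that these letters are not in these windows. Car2 was not listed.

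Slc4a4, the bicarbonate exit on the basolateral side, differed most between the LPS and LPS/LPS groups among the members. Its levels in control replicates 1 to 4 were 5.84, 5.56, 4.94 and 6.12. The LPS replicates 1 to 4 read 5.18, 6.46, 6.80 and 7.01. The LPS/LPS replicates 1 to 5 read 5.43, 5.02, 4.12, 5.05 and 5.55. LPS replicates 2, 3 and 4 lay above every control and every LPS/LPS array, whereas LPS replicate 1 lay within both ranges. The means were 5.61 ± 0.50 (SD, n = 4) in control, 6.36 ± 0.82 (SD, n = 4) in LPS and 5.03 ± 0.56 (SD, n = 5) in LPS/LPS. The LPS/LPS group differed from LPS by -1.33 (SE 0.37, 95% interval -2.13 to -0.53), a level 2.51-fold lower, with an unadjusted p of 0.00299 and a limma adjusted p of 0.322. Without LPS replicate 1 the difference was -1.72 and passed the threshold (limma adjusted p = 0.0363), and under the other settings the adjusted p reached up to 0.663. That array had the lowest S1 and S2 marker mean of its group, 4.59 against 5.07 to 5.92. Set against control, LPS differed by 0.75 (SE 0.39, limma adjusted p = 0.774) and LPS/LPS by -0.58 (SE 0.37, limma adjusted p = 0.987). Without LPS replicate 1 the first was 1.15, and without LPS/LPS replicate 3 the second was -0.35.

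Slc4a4 also followed the spread of the arrays. Its mean was 6.17 on the wide and 4.98 on the narrow arrays, and only LPS/LPS replicates 1 and 5 among the wide ones lay under the highest narrow array, at 5.56. The 3 high LPS arrays are all of the wide class and the low one is the narrow class's lone LPS array. Among wide arrays LPS/LPS minus LPS was -1.27 and LPS minus control 0.78. Among narrow arrays these values were -0.45 and -0.07. RefSeq lists starts of Slc4a4 in 2 windows of the same strand of chromosome 5, and the array value is not tied here to either of the transcript forms. Both windows are shown for that reason, with motif letters in capitals: the reverse strand of the SP1 letters in the upstream one and of the CAAT box letters in the downstream one. The upstream window is chr5:88887010-88887259, plus strand and the downstream one chr5:89027716-89027965, plus strand, in GRCm38.p6.
Slc4a4 upstream start: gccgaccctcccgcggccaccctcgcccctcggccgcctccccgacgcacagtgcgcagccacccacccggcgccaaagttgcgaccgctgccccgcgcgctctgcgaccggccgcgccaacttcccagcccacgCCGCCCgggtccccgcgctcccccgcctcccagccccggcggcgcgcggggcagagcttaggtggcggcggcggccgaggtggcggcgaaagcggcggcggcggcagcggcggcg
Slc4a4 downstream start: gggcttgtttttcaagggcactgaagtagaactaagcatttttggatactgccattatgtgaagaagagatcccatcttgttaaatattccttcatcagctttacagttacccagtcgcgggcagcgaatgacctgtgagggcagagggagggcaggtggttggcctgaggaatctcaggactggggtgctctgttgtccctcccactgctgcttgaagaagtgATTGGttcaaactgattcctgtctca

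**Figure D2:**
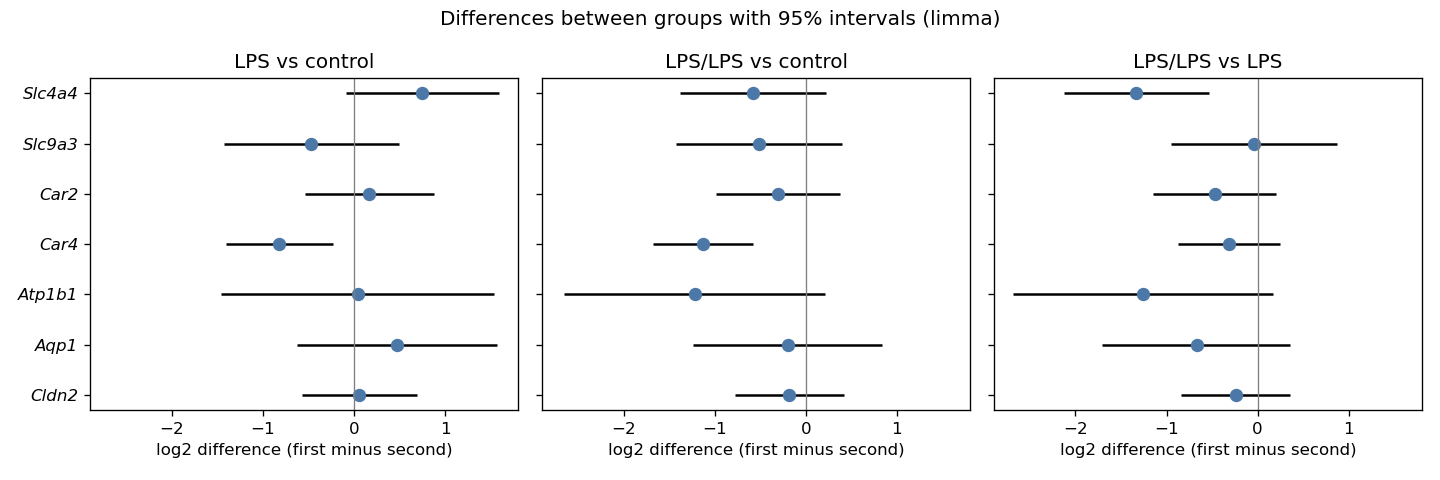
Log2 differences (x axis) of the 7 measured genes in the 3 comparisons, as points with 95% intervals from the limma fit. The intervals leave out 0 for Car4 in LPS vs control (-1.40 to -0.23) and in LPS/LPS vs control (-1.68 to -0.58) and for Slc4a4 in LPS/LPS vs LPS (-2.13 to -0.53), before any adjustment for the number of genes.

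Slc9a3, the sodium-proton exchanger of the brush border, varied most among the control arrays. Its levels in control replicates 1 to 4 were 5.80, 4.19, 3.09 and 4.87, which hold both the highest and the lowest value of all 13 arrays. In LPS replicates 1 to 4 they were 3.41, 3.66, 4.10 and 4.90. In LPS/LPS replicates 1 to 5 they were 4.10, 3.67, 3.89, 4.10 and 4.12, so every treated array lay inside the control range. The means were 4.49 ± 1.14 (SD, n = 4) in control, 4.02 ± 0.65 (SD, n = 4) in LPS and 3.98 ± 0.20 (SD, n = 5) in LPS/LPS. LPS differed from control by -0.47 (SE 0.45, 95% interval -1.43 to 0.49, limma adjusted p = 0.88) and LPS/LPS from control by -0.51 (SE 0.42, 95% interval -1.42 to 0.40, limma adjusted p = 0.987). LPS/LPS and LPS differed by -0.04 (SE 0.42, limma adjusted p = 0.987). Without control replicate 1 the differences from control were -0.03 for LPS and -0.07 for LPS/LPS, and without control replicate 3 they were -0.94 and -0.98. Only 3 of the 13 arrays exceeded the background reference.

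Atp1b1, the beta subunit that carries the sodium pump to the basolateral membrane, had the widest range of the members. Its levels in control replicates 1 to 4 were 7.94, 6.48, 6.29 and 5.83. In LPS replicates 1 to 4 they were 5.01, 5.78, 8.89 and 7.02. In LPS/LPS replicates 1 to 5 they were 6.68, 4.90, 5.06, 4.78 and 5.66. Among the LPS/LPS arrays 4 lay below all control arrays, and replicate 1 lay within their range. The means were 6.64 ± 0.91 (SD, n = 4) in control, 6.67 ± 1.69 (SD, n = 4) in LPS and 5.42 ± 0.78 (SD, n = 5) in LPS/LPS. LPS/LPS differed from control by -1.22 (SE 0.67, 95% interval -2.65 to 0.21, limma adjusted p = 0.987) and from LPS by -1.26 (SE 0.67, 95% interval -2.68 to 0.17, limma adjusted p = 0.627). LPS and control differed by 0.04 (SE 0.70, limma adjusted p = 0.992). Without control replicate 1 the difference of LPS/LPS from control was -0.78. All 13 arrays exceeded the background reference, and the wide and narrow classes differed by 1.41, from 6.83 to 5.42. The pump's gamma subunit Fxyd2, which tunes its affinity for sodium, had means of 6.15 ± 0.73 in control, 6.16 ± 1.28 in LPS (SD, n = 4 each) and 5.17 ± 0.73 in LPS/LPS (SD, n = 5). It differed by -0.98 in LPS/LPS vs control (SE 0.53, limma adjusted p = 0.987) and by -0.99 in LPS/LPS vs LPS (SE 0.53, limma adjusted p = 0.635). Like Atp1b1, its highest value, 8.03, was on LPS replicate 3, and without that array Fxyd2 differed by -0.37 in LPS/LPS vs LPS.

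Aqp1, the constitutive water channel of both cell faces, read 5.33, 5.80, 4.73 and 5.31 in control replicates 1 to 4. In LPS replicates 1 to 4 it read 5.64, 4.89, 7.83 and 4.70. In LPS/LPS replicates 1 to 5 it read 4.89, 5.19, 5.36, 5.31 and 4.70. Apart from LPS replicate 3 all arrays lay between 4.70 and 5.80, with the groups overlapping. The means were 5.29 ± 0.43 (SD, n = 4) in control, 5.76 ± 1.43 (SD, n = 4) in LPS and 5.09 ± 0.28 (SD, n = 5) in LPS/LPS, and the LPS mean without replicate 3 was 5.08 ± 0.49 (SD, n = 3). LPS differed from control by 0.47 (SE 0.51, limma adjusted p = 0.894), or by -0.22 without LPS replicate 3. The LPS/LPS group differed from LPS by -0.67 (SE 0.48, limma adjusted p = 0.723), or by 0.01 without that array. LPS/LPS and control differed by -0.20 (SE 0.48, 95% interval -1.24 to 0.84, limma adjusted p = 0.991), with a range of -0.39 to -0.03 on leaving out single arrays.

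Car2, the cytosolic carbonic anhydrase II, read 3.71, 4.28, 3.52 and 3.28 in control replicates 1 to 4. Values of 3.38, 3.28, 5.14 and 3.67 belonged to LPS replicates 1 to 4. Values of 3.21, 3.38, 3.35, 3.52 and 3.51 belonged to LPS/LPS replicates 1 to 5. LPS replicate 3 was the lone array above the background reference, and the other 12 overlapped between groups. The means were 3.70 ± 0.43 (SD, n = 4) in control, 3.87 ± 0.86 (SD, n = 4) in LPS and 3.40 ± 0.13 (SD, n = 5) in LPS/LPS. LPS differed from control by 0.17 (SE 0.33, limma adjusted p = 0.944), or by -0.25 without LPS replicate 3. LPS/LPS differed from control by -0.30 (SE 0.32, limma adjusted p = 0.987) and from LPS by -0.47 (SE 0.32, limma adjusted p = 0.707), the last becoming -0.05 without LPS replicate 3. Without control replicate 2 the difference of LPS/LPS from control was -0.11.

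The array with the highest Atp1b1, Aqp1 and Car2 was thus the array with the highest Umod and Slc12a1. These 3 genes are also known from other nephron segments: Atp1b1 from the thick ascending limb, Aqp1 from the thin descending limb and Car2 from intercalated cells of the collecting duct. Of the 13 markers of the thick limb and beyond, 7 were highest on LPS replicate 3: Umod, Slc12a1, Slc12a3, Calb1, Aqp2, Aqp3 and Scnn1g. The thick limb claudin gene Cldn16 read 3.81 on that array, a difference of -0.25 from the median of the other arrays. Pvalb (3.97) and Slc4a1 (4.33) were not highest on it either. The intercalated cell markers Foxi1 (5.29), Atp6v1b1 (3.95) and Slc26a4 (3.97) were not highest there, and the 4 measured markers of the thin descending limb had group ranges of mean level of 3.56 to 4.09 in control, 3.61 to 3.69 in LPS and 3.68 to 3.87 in LPS/LPS. Slc4a4 (6.80), Slc9a3 (4.10), Car4 (4.87) and Cldn2 (3.63) were not at their highest on that array. What later segments contributed to the 3 genes was not tested. Without this array Atp1b1 differed by -0.70 in LPS vs control and by -0.52 in LPS/LPS vs LPS.

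**Figure D3:**
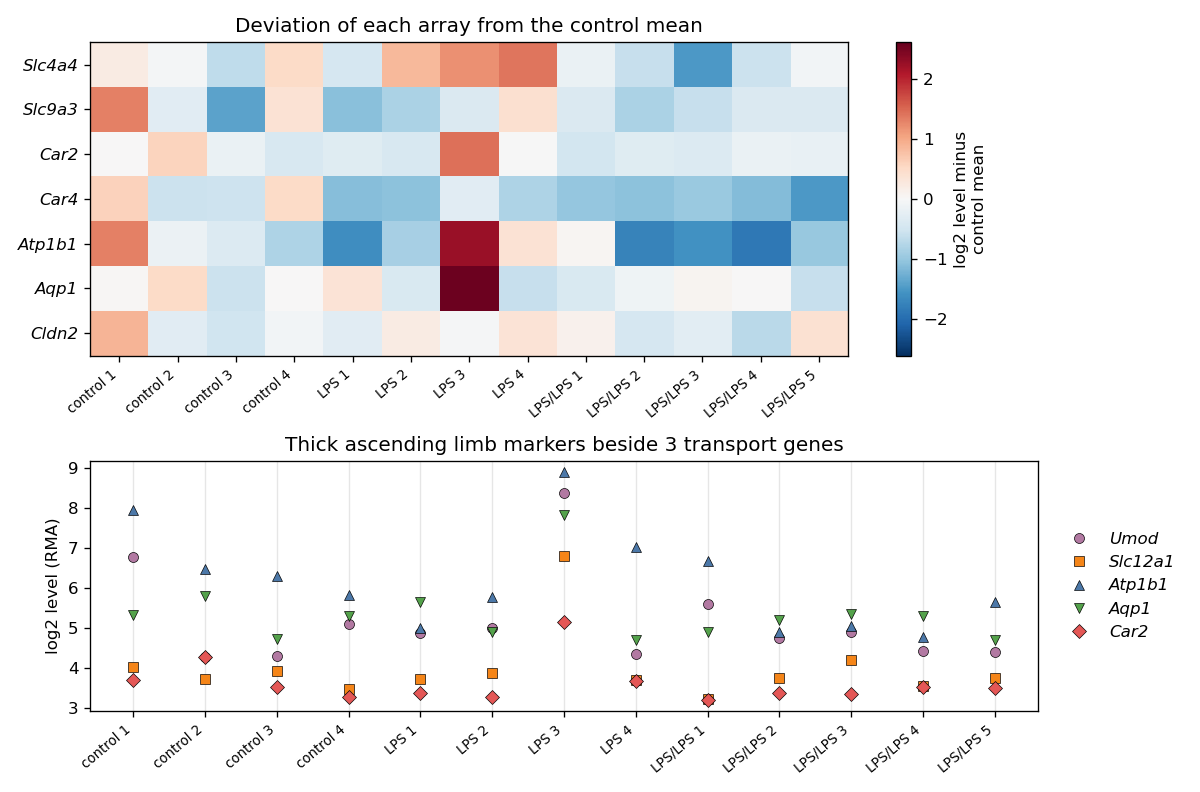
Top, log2 level of each measured gene on each array minus its control mean (colour scale, log2 units). Bottom, log2 levels (y axis) of the thick ascending limb markers Umod and Slc12a1 with Atp1b1, Aqp1 and Car2 on the same arrays (x axis). LPS replicate 3 carries the highest value of all 5 genes, 8.36, 6.79, 8.89, 7.83 and 5.14 in that order.

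Cldn2, the claudin that forms cation and water pores, was dim on every array, with 0 of 13 above the background reference. It read 4.55, 3.37, 3.15 and 3.59 in control replicates 1 to 4. In LPS replicates 1 to 4 it read 3.36, 3.89, 3.63 and 4.02. In LPS/LPS replicates 1 to 5 it read 3.77, 3.22, 3.39, 2.96 and 4.06. The means were 3.66 ± 0.62 (SD, n = 4), 3.72 ± 0.29 (SD, n = 4) and 3.48 ± 0.44 (SD, n = 5) in that order of groups, which overlapped. The differences were 0.06 in LPS vs control (SE 0.29, limma adjusted p = 0.978), -0.18 in LPS/LPS vs control (SE 0.28, limma adjusted p = 0.991) and -0.24 in LPS/LPS vs LPS (SE 0.28, limma adjusted p = 0.847). Cldn2 instead separated the arrays by their spread, with all 7 wide arrays at 3.59 or above and all 6 narrow arrays at 3.39 or below. Of all genes, 0.239% separated that way, with the wide arrays higher. Cldn2 was the sole member to do so, although the wide mean exceeded the narrow mean for all 7 members, by 0.04 (Aqp1) to 1.41 (Atp1b1).

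The array profile of the members was compared by the root mean square difference of their log2 values after centring each gene on its mean over the 13 arrays. Among the members the closest pair was Car2 and Aqp1, 0.44 apart, or 0.35 without LPS replicate 3. Next came Slc9a3 with Cldn2 (0.49) and with Car4 (0.54), and the farthest were Slc9a3 and Atp1b1 (1.04). Without LPS replicate 3 these were 0.70 apart, and Atp1b1 and Aqp1 were then the farthest pair, at 1.06 (1.02 with that array). Among genes with a mean above the background reference, the one closest to Atp1b1 was Lrp2, which encodes the endocytic receptor megalin, 0.26 apart, followed by the tetraspanin gene Cd81 (0.39) and Cryz (0.49). Lrp2 is itself one of the S1 and S2 markers. Closest to Slc4a4 were Myh9, a non-muscle myosin gene (0.31), Gm4184 (0.35) and the amyloid precursor gene App (0.38). Closest to Car4 were Ybx1 (0.36), the acyl-CoA synthetase gene Acsm2 (0.37) and Pgap6 (0.39), and closest to Slc9a3 were Cyp2a22 (0.34), Vegfa (0.41) and Prr15l (0.42). Aqp1 lay closest to Rtn3 (0.37), Ppic (0.42) and Cyba (0.42). Car2 and Cldn2 varied least of the members, with an SD over all arrays of 0.53 and 0.44, which by itself makes distances to them smaller. Closest to Car2 were Ppic, H2az2 and Bsg (0.29 each), and closest to Cldn2 were Prr15l (0.24), Nrbp2 (0.26) and Gm3285 (0.28). All these distances rest on the same arrays, with their shared spread.

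The other genes of the pathway were followed in 10 lists with 124 genes, of which 111 had a probe set of their own and 17 a mean above the background reference. limma called 0 of the 111 in both comparisons with control and 1, lower, in LPS/LPS vs LPS. Unadjusted p-values under 0.05 were held by 10 (9.01%), 6 (5.41%) and 14 (12.6%) of the 111 in that order, beside the 6.43%, 4.70% and 8.61% of all genes. The median differences were 0.01, -0.02 and 0.

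The gene called was Ezr, among 10 measured exchangers and partners of NHE3. It encodes ezrin, which links the exchanger's scaffold proteins to the actin of the brush border. Ezr read 3.88, 4.28, 3.36 and 3.72 in control replicates 1 to 4, then 4.48, 4.75, 5.68 and 5.38 in LPS replicates 1 to 4, and 3.76, 3.61, 3.40, 3.23 and 3.52 in LPS/LPS replicates 1 to 5. All 4 LPS arrays lay above all arrays of the other 2 groups. Ezr fell in LPS/LPS vs LPS, by 1.57 on the log2 scale (SE 0.24, limma adjusted p = 0.0337), a level 2.97-fold lower, from 5.07 ± 0.55 (SD, n = 4) to 3.50 ± 0.20 (SD, n = 5). The difference was -1.63 in the wide class and -1.07 in the narrow class. Set against control, LPS differed by 1.26 (SE 0.25, limma adjusted p = 0.15) and LPS/LPS by -0.31 (SE 0.24, limma adjusted p = 0.987). Without LPS replicate 1 the difference of LPS from control was 1.46 and passed (limma adjusted p = 0.0441). Under the other settings that adjusted p reached up to 0.525. The call in LPS/LPS vs LPS was lost without LPS replicate 3 or 4, without any of LPS/LPS replicates 2 to 5, in a fit of only the 2 groups, with the replicate block and over all probe sets. The adjusted p ranged from 0.00658 to 0.223 over these and the other settings recorded, with the difference between -1.77 and -1.37. Its adjusted p without single control arrays was not recorded. The mean of Ezr over all arrays and its control and LPS/LPS means lay below the background reference. The scaffold gene Slc9a3r1, which binds NHE3, differed by -0.40 in LPS/LPS vs control (SE 0.19, limma adjusted p = 0.987).

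Among 9 potassium channel genes the lowest p in every comparison belonged to Kcnk5. It encodes TASK-2, an alkali-activated channel of the basolateral membrane known to support bicarbonate reabsorption. Kcnk5 read 4.88, 4.94, 4.79 and 4.57 in control replicates 1 to 4, then 5.28, 4.57, 5.41 and 6.13 in LPS replicates 1 to 4, and 4.24, 4.21, 3.92, 4.06 and 4.06 in LPS/LPS replicates 1 to 5. All LPS/LPS arrays lay below all arrays of the other 2 groups. The means were 4.80 ± 0.16 in control, 5.35 ± 0.64 in LPS (SD, n = 4 each) and 4.10 ± 0.13 in LPS/LPS (SD, n = 5). LPS/LPS differed from LPS by -1.25 (SE 0.23, unadjusted p = 8.58e-05, limma adjusted p = 0.0827) and from control by -0.70 (SE 0.23, limma adjusted p = 0.987), and LPS from control by 0.55 (SE 0.24, limma adjusted p = 0.745), or by 0.29 without LPS replicate 4. The difference from LPS was -1.22 in the wide class and -1.21 in the narrow class, and without LPS replicate 2 it was -1.51 and passed (limma adjusted p = 0.0213). Over the settings that adjusted p reached up to 0.367. The mean of Kcnk5 over all arrays (4.70) and its LPS/LPS mean lay below the background reference, so the size of these differences is uncertain.

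Proximal tubule cells also make new bicarbonate when they break down glutamine to ammonia. Of 5 measured genes of this list, 4 had an unadjusted p under 0.05 and positive differences in LPS vs control, and 4 had an unadjusted p under 0.05 and negative differences in LPS/LPS vs LPS, with 0 called in either. The list median was 0.60 in LPS vs control, -0.03 in LPS/LPS vs control and -0.53 in LPS/LPS vs LPS. These comparisons share the LPS arrays. All 5 genes had their highest value of all arrays on LPS replicate 3: Pck1 9.47, Glud1 6.39, Oat 5.69, Slc38a3 5.13 and Gldc 4.43. The list medians without that array were not computed. Pck1, the cytosolic phosphoenolpyruvate carboxykinase gene that also serves gluconeogenesis, read 7.76, 7.10, 6.77 and 7.12 in control, 7.72, 8.72, 9.47 and 7.83 in LPS and 8.03, 7.60, 7.07, 6.69 and 7.93 in LPS/LPS, each in order of replicate number. LPS replicates 2, 3 and 4 exceeded all control arrays, and replicate 1 did not. LPS differed from control by 1.25 (SE 0.38, limma adjusted p = 0.551), and by 0.90 without LPS replicate 3. LPS/LPS differed from LPS by -0.97 (SE 0.36, limma adjusted p = 0.47). Gldc, of the glycine cleavage system, differed by -0.53 in LPS/LPS vs LPS (SE 0.17, limma adjusted p = 0.403), or by -0.44 without LPS replicate 3. Glud1, glutamate dehydrogenase, and Oat, ornithine aminotransferase, were named after their values were seen. In LPS vs control they differed by 0.90 (SE 0.35, limma adjusted p = 0.698) and 0.60 (SE 0.24, limma adjusted p = 0.714). Within the narrow arrays, with their lone LPS array, the LPS minus control values were 0.78 for Pck1, -0.31 for Glud1, -0.01 for Oat and -0.04 for Gldc. The glutamine transporter gene Slc38a3 differed by -0.30 in LPS/LPS vs control (SE 0.26, limma adjusted p = 0.987), or by -0.06 without control replicate 3.

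**Figure D4:**
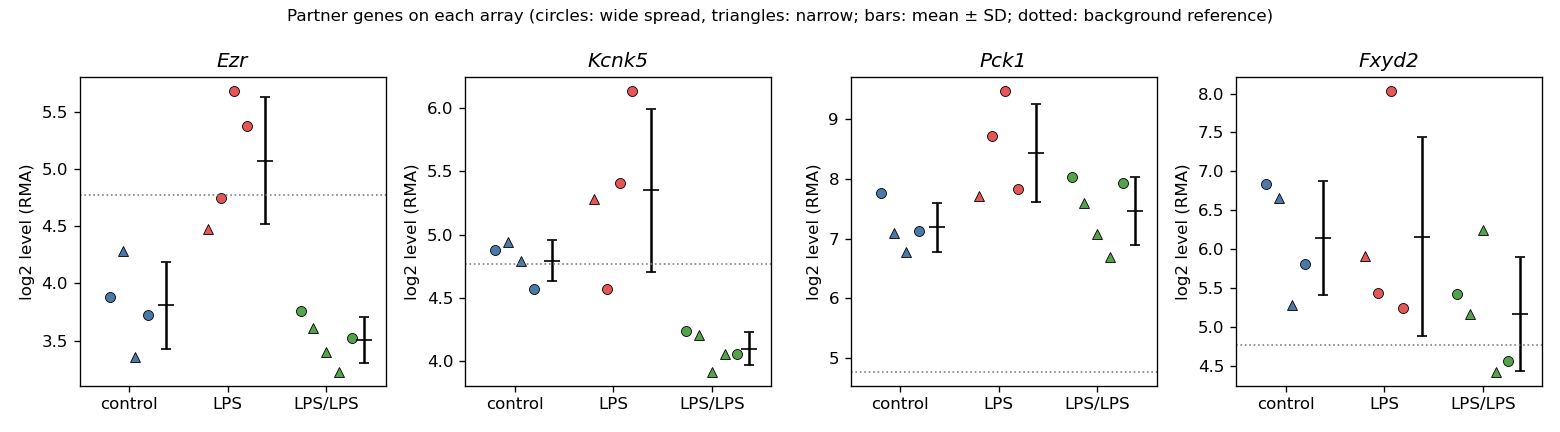
Log2 level (RMA, y axis) of Ezr, Kcnk5, Pck1 and Fxyd2 on each array of the 3 groups, with wide (circles) and narrow (triangles) arrays, mean ± SD as black bars and the background reference of 4.77 as a dotted line. All 4 LPS arrays of Ezr lie above the other groups, all 5 LPS/LPS arrays of Kcnk5 lie below them, and the highest Pck1 (9.47) and Fxyd2 (8.03) values are on LPS replicate 3.

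The remaining lists held no called gene in any comparison. Among 12 other carbonic anhydrases, Car15, a membrane-bound relative of Car4, had the lowest p in LPS vs control, with a difference of -0.33 (SE 0.13, limma adjusted p = 0.698). Its LPS and control arrays did not overlap, as for 3.15% of all genes. It differed by -0.17 in LPS/LPS vs control (SE 0.12, limma adjusted p = 0.987), and Car9 led LPS/LPS vs LPS with -0.25 (limma adjusted p = 0.659). These became -0.09 for Car15 without control replicate 2 and -0.13 for Car9 without LPS replicate 1. The list medians were -0.03 in LPS vs control, -0.03 in LPS/LPS vs control and 0.07 in LPS/LPS vs LPS. The 12 measured genes of the bicarbonate and anion exchange list had medians of -0.01, -0.07 and 0.02. Among them the anion exchanger Slc4a2 led with 0.36 in LPS vs control (limma adjusted p = 0.774) and -0.36 in LPS/LPS vs LPS (limma adjusted p = 0.604). Slc26a4 led with -0.27 in LPS/LPS vs control (limma adjusted p = 0.987). Without LPS/LPS replicate 3 the Slc4a2 difference from LPS was -0.23, and without control replicate 4 that of Slc26a4 was -0.11. Among 11 other aquaporins, with medians of 0.14, 0.11 and 0.05, Aqp4 led with 0.46 (limma adjusted p = 0.751), Aqp11 with -0.41 (limma adjusted p = 0.987) and Aqp8 with 0.60 (limma adjusted p = 0.413), in the same order of comparisons. Without LPS replicate 3 the Aqp4 difference was 0.26, and without control replicate 4 that of Aqp11 was -0.27. Among 19 claudin and tight junction genes, with medians of 0.03, 0.06 and 0.09, these were Cldn3 with -0.52 (limma adjusted p = 0.685), the cingulin gene Cgn with 0.69 (limma adjusted p = 0.987) and Cldn16 with 0.37 (limma adjusted p = 0.415). Of the genes named from these lists, all but Cgn had a mean below the background reference.

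The vacuolar proton pump, a second route of proton secretion into the lumen, had 17 measured subunit genes with median differences of 0.01, -0.10 and -0.13 in the same order. Of the 17, 12 were negative in LPS/LPS vs control and 14 in LPS/LPS vs LPS. The lowest p belonged to Atp6v1c1 in LPS vs control (0.71, limma adjusted p = 0.774), Atp6v1g1 in LPS/LPS vs control (-0.47, limma adjusted p = 0.987) and Atp6v1e1 in LPS/LPS vs LPS (-0.71, limma adjusted p = 0.496). Without LPS replicate 3 the difference of Atp6v1c1 was 0.18 and that of Atp6v1e1 -0.37. Among the sodium pump's other measured subunits, Atp1b3 led LPS vs control with 0.24 (limma adjusted p = 0.842), or 0.08 without LPS replicate 3, and the median of the 3 was -0.22 in LPS/LPS vs LPS. Of 13 genes for the angiotensin, dopamine and parathyroid hormone control of proximal sodium transport, the angiotensin type 2 receptor gene Agtr2 led both comparisons with control. It differed by 0.62 in LPS (SE 0.17, limma adjusted p = 0.454) and by 0.45 in LPS/LPS (SE 0.16, limma adjusted p = 0.987), at levels below the background reference. Neither treated group overlapped with the control arrays, as for 3.15% and 1.54% of all genes. Enpep, the aminopeptidase that trims angiotensin II, led LPS/LPS vs LPS with -0.41 (limma adjusted p = 0.59), or -0.18 without LPS replicate 4. The medians of this list were 0.01, -0.03 and 0.09.

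**Figure D5:**
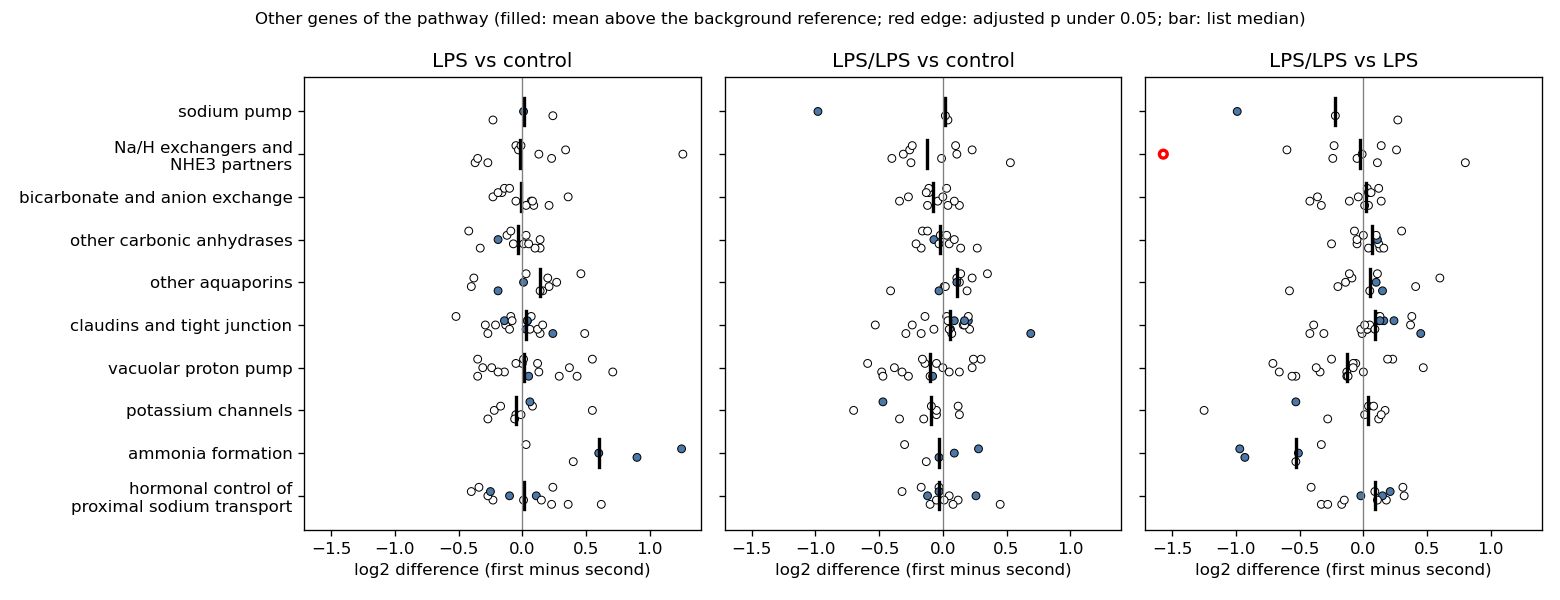
Log2 differences (x axis) of the 111 other measured genes of the pathway in 10 lists (rows) for the 3 comparisons. Each point is a gene, filled where its mean exceeds the background reference, with a red edge where the adjusted p is under 0.05, and the black bar is the list median. The sole called gene is Ezr at -1.57, and the ammonia formation list has medians of 0.60, -0.03 and -0.53.

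For S3 tubule, thin limb, podocytes, endothelium, red cells, macrophages and fibroblasts, the mean level of each marker list lay below the background reference on every array. The mean level of 10 endothelial markers, whose cells are also known to hold Aqp1 and Car4, ran from 3.88 to 3.95 in control, 4.03 to 4.30 in LPS and 4.03 to 4.16 in LPS/LPS, so control lay below both treated groups. Their median difference was 0.17 in LPS vs control and 0.19 in LPS/LPS vs control, with 0 called and 1 of 10 above the background reference, and their part in the Aqp1 and Car4 values was not tested. Red cells hold Car2, but only 2 of 9 erythrocyte markers had a probe set of their own, with mean levels of 3.42 to 4.06 over all groups. Macrophage and monocyte markers (12 genes, 0 above the background reference) had mean levels of 3.69 to 3.97, and those of podocytes (5 genes, 0 above it) 3.85 to 4.19. Fibroblast and mural cell markers (9 genes, 2 above it) ran from 3.99 to 4.21 in control, 4.07 to 4.70 in LPS and 4.17 to 4.42 in LPS/LPS. The 7 measured S3 markers ran from 3.65 to 3.87 in control, 3.62 to 4.42 in LPS and 3.32 to 3.92 in LPS/LPS.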

How the data were processed

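Total RNA of S1 tubules was extracted with the PicoPure kit and concentrated with isopropanol, and 2 ng per sample carried a biotin label from the Affymetrix WT Pico kit, per the labels' protocols. For 13 arrays the authors deposited log2 levels of each probe set, made with RMA in Partek 6.6 going by the submitters' processing notes. Settings of the background and between-array steps, and the genome build, were not given in the sources used here. RMA can compress changes of dim genes toward 0, and precision is limited by the number of arrays.

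Of 41345 probe sets, 23521 had 1 gene symbol in the platform annotation, 1814 several and 16010 none. Only the first kind was used, with the probe set of highest mean per gene, which left 22180 genes. By Entrez identifier 23328 of these probe sets matched a RefSeq table of GRCm38.p6, and 0 symbols changed. The 3 groups were fitted together in limma 3.58.1 (R 4.3.3; lmFit, eBayes) with no covariates, with Benjamini-Hochberg adjustment over all genes and a threshold of 0.05. The fit was also run on simulated data with known changes and independent normal noise per gene. That noise does not carry the spread classes of these arrays, so nothing is concluded from it here.

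The members, lists and tests were chosen with earlier results of these data known. All members are named. Of each other list and comparison the called genes (up to 4) or else the gene with the lowest p are named, and the 3 genes most alike in profile to each member. The spread classes divide at an SD of 1.328. Alternatives covered the samples fitted, blocks, array weights, scaling, moderation, filters, probe sets and leaving out each array. For single genes, results without an array were kept only for comparisons that include its group. Promoter sequences come from RefSeq.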

Additional observations from a re-analysis of the deposited data

Results flagged for a closer look

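No value of the 7 members stood apart from its group by Dixon's criterion, which sets the gap of the highest or lowest array to its nearest neighbour against the group's range. The largest ratio was 0.788, for Car2 on LPS replicate 3. Over the members and the genes named by rule from the pathway lists 5 of 90 groups passed the criterion, where chance gives about 1 in 20. In control, Car9 was highest on replicate 3 at 4.40. In LPS/LPS, Car9 was lowest on replicate 2 at 3.66. Enpep was highest on control replicate 4 at 3.84, where the nearest other array read 3.83, and on LPS replicate 4 at 4.77, where the nearest read 3.85 and without which its difference in LPS/LPS vs LPS was -0.18. Slc26a4 was lowest on LPS/LPS replicate 1 at 3.37, where the nearest read 3.52.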

How the results depend on the processing

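With 4 or 5 arrays per group, the 95% intervals of the members' differences reached from -2.68 to 1.59 on the log2 scale, so shifts within them were not resolved. The count of members called was 0 under all 23 alternatives, including the replicate block, in both comparisons with control, and under the 22 alternatives of the F-test. In LPS/LPS vs LPS it ranged from 0 to 1 on leaving out single arrays, the 1 being Slc4a4 without LPS replicate 1. All genes called in that comparison numbered 14, against 2 in the fit of only the 2 groups, 4 with the replicate block, 41 with array weights, 7 over all probe sets and 96 without LPS replicate 1, and 5 to 20 otherwise. In LPS vs control they numbered 0, against 30 with array weights, 24 without LPS replicate 1, 3 with the replicate block and 0 to 7 otherwise. In LPS/LPS vs control they numbered 2, against 0 to 4 over the alternatives, 0 with the replicate block. In the F-test 14 became 0 over all probe sets and 39 with array weights or without LPS replicate 1. The replicate numbers gave no pairing: deviations from the group means correlated over 0.1 in 3 of 12 same-numbered pairs (range -0.351 to 0.215), and 2 of 13 arrays matched best with their own number. With the replicate block, the Ezr call in LPS/LPS vs LPS had an adjusted p of 0.223, against 0.124 in the fit of only the 2 groups and 0.0845 over all probe sets, and the block changed no other call on a named gene. Signs changed only for differences that were not called. For Atp1b1 in LPS vs control the value was -0.24 with array weights, -0.15 after quantile normalization, -0.03 with arrays scaled to equal median and median absolute deviation and -0.27 with the spread class as a block, and -0.70 to 0.59 on leaving out arrays. For Car2 in LPS vs control it was 0 with array weights, and -0.25 to 0.37 on leaving out arrays. For Aqp1 in LPS vs control the latter range was -0.22 to 0.83, and in LPS/LPS vs LPS -1.03 to 0.01. For Cldn2 the value with the spread class as a block was -0.11 in LPS vs control and 0 in LPS/LPS vs LPS. On leaving out arrays it ran from -0.11 to 0.35 in LPS vs control and from -0.35 to 0.11 in LPS/LPS vs control. For Slc9a3 in LPS/LPS vs LPS it was 0.06 with array weights, 0.27 with the spread class as a block and -0.24 to 0.25 on leaving out arrays. The cause of these changes was not tested. The filter on dim genes left out Slc9a3, Car2, Car4 and Cldn2, which therefore have no value under it.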
